A study of Bos taurus with 27 samples.

Results

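Heat shock proteins and the DNAJ co-chaperones were followed in 27 pools of bovine blastocysts. The genes were taken by symbol, as every counted gene that begins with HSPA, HSPB, DNAJA, DNAJB or DNAJC, together with HSP90AA1, HSP90AB1, TRAP1, HSPD1, HSPE1, HSPH1, HSF1, HSF2, BAG1, BAG3, AHSA1 and STIP1. HSPA5, DNAJB9, DNAJB11 and DNAJC3, which work in the endoplasmic reticulum, were left out. This gave 75 of the 32637 counted genes. The prefix HSPB also took in HSPBP1, an exchange factor of HSP70, and HSPBAP1, a protein that binds HSPB1, and neither of these is a small heat shock protein.

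Chaperones of the HSP70 class hold unfolded stretches of other proteins and release them as ATP is used. DNAJ proteins bring the client and start ATP hydrolysis, exchange factors such as HSPH1, HSPA4 and the BAG proteins remove the spent nucleotide, and HSP90 receives part of the clients through STIP1. Some members are made in all growing cells, whereas others, of which HSPA1A and DNAJB1 are the best known, are transcribed by the heat shock factors when proteins unfold.

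Each pool held the RNA of 2 blastocysts, all of which were scored 7 for stage and 1 for quality. The embryos were produced in vitro from oocytes of abattoir ovaries, which had matured with fluid of preovulatory follicles whose maturity was greater or lesser, and were fertilized with semen of the same bull. The labels put all 27 pools in 1 group and give neither the follicle maturity treatment nor the in vitro fertilization replicate, so the treatments were not compared here and relations across pools were not recomputed within a replicate. Nothing in the labels says that the pools came from separate cultures. The paper states that the blastocysts came from fewer replicates than there are pools, and that those of a pool shared treatment and replicate. Pools of the same replicate may thus be alike. The p-values treat each pool as separate and measure only the spread between these pools.

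Pools held 10517606 to 44253564 counts on genes. Levels are given as counts per 1000000 counts of the pool (CPM), and 1 CPM equalled 10.5 to 44.3 counts. The trophectoderm markers KRT8 (10630 to 26270 CPM) and GATA3 (90.5 to 238) and the epiblast marker POU5F1 (109 to 753) were present in every pool. Some markers of both types were lower, such as CDX2 of the trophectoderm (1.97 to 9.42 CPM) and SOX2 of the epiblast (2.82 to 20.5). ELF5 of the trophectoderm had no count in 5 pools, and FGF4 of the epiblast had none in 17. Of the hypoblast markers, GATA6 was between 19.5 and 301 CPM, whereas SOX17 had no count in 14 pools and FOXA2 none in 19. Of the cumulus cell markers, FSHR (0.712 to 24.6 CPM) and TNFAIP6 (0.178 to 7.93) were counted in every pool, whereas FOXL2 had no count in 26. In such bulk libraries, fewer cells of a type and less RNA per cell cannot be told apart. The libraries were read at the 3′ end of the mRNA and CPM was not divided by transcript length, so a level is a share of the reads of a pool and levels of different genes do not compare their molecules.

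With at least 1 CPM required in 12 pools, 64 of the 75 chaperone genes were retained, or 85.3%, beside 37.7% of all counted genes. Together the 75 genes held between 1.07% of the counts in pool 35 and 1.34% in pool 22, with a median of 1.23%. All 27 pools held at least 1 CPM of 52 chaperones (81.2% of those retained, beside 72.6% of all retained genes). A median of 50 CPM or more was found for 25 of them (39.1%, beside 25.3%).

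**Figure D1:**
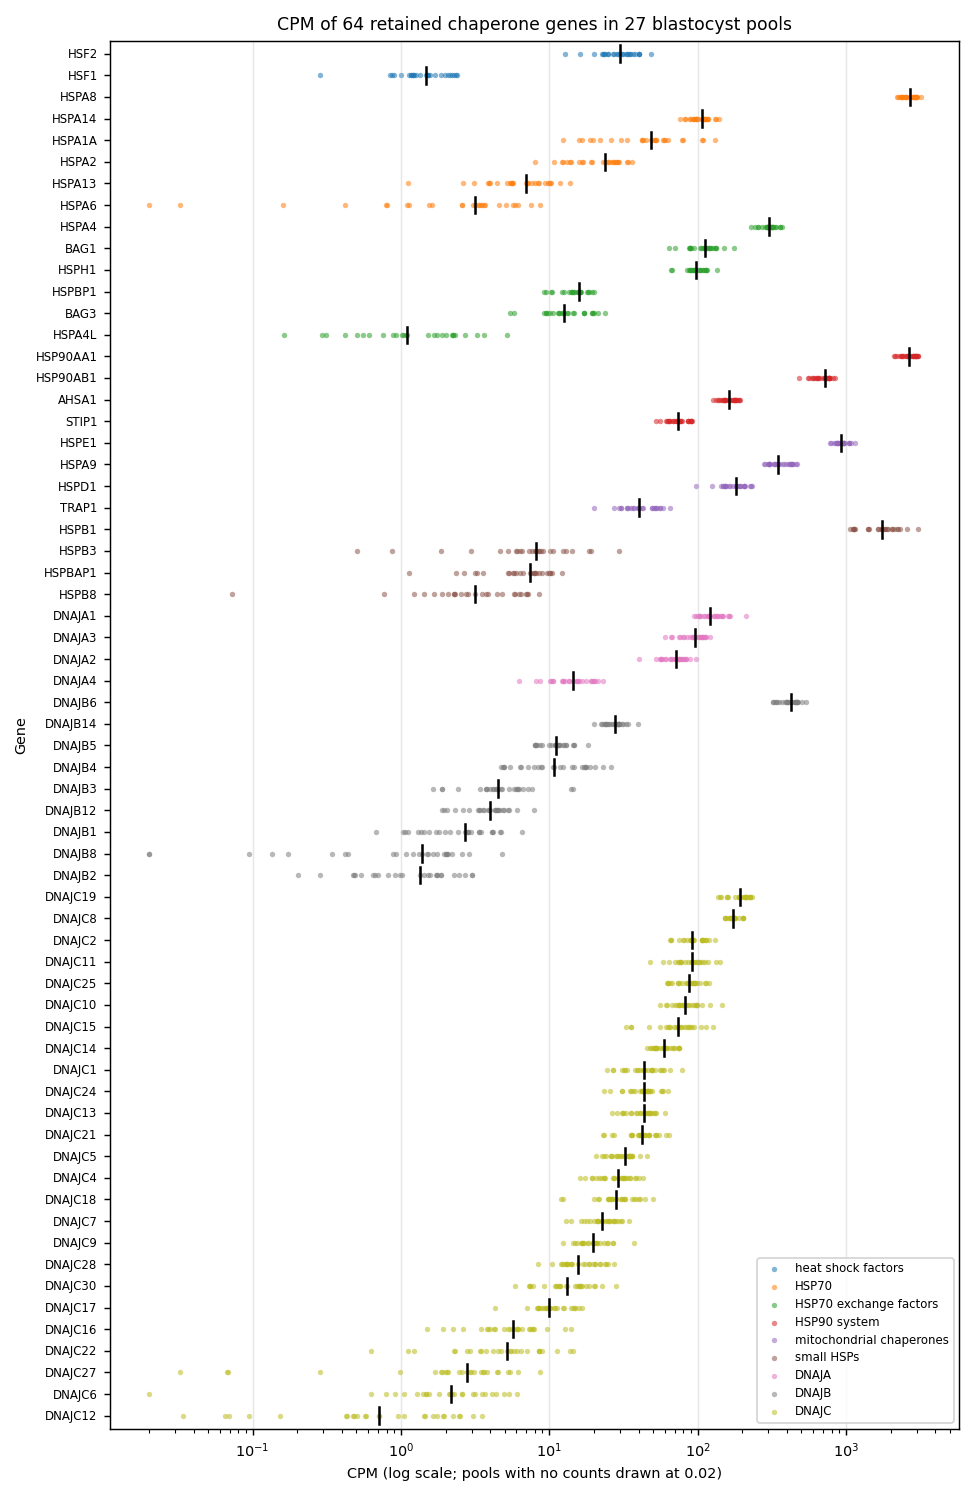
Abundance of the 64 retained chaperone genes in CPM on a log scale, 1 point per pool and 27 pools per gene, coloured by role, with the median as a black bar. HSPA8 and HSP90AA1 lie furthest to the right with narrow spreads, HSPA1A spans 12.3 to 131 CPM, and genes of low abundance are widely spread.

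The constitutive HSP70, HSPA8, had the highest median of these genes. HSP90AA1 was close to it (median 2681 CPM) and was above it in some pools, such as pool 31 (3013 against 2194). HSPA8 was between 2194 CPM in pool 31 and 3199 in pool 21 (median 2719), which is 1.46-fold from the lowest to the highest pool. HSPA14, which sits on ribosomes with the J protein DNAJC2 and meets new chains, was between 75.7 and 138 CPM (median 106), and DNAJC2 between 64.7 and 131 (median 92.4). HSPA2, best known from spermatogenesis, was between 7.95 and 36.4 CPM (median 23.7). HSPA13, found in microsomes, ranged from 1.12 to 13.8 CPM, with a median of 7.01. HSPA6, a strictly stress-inducible member in human cells, was low, from no counts in pool 14 to 8.64 CPM in pool 45, with a median of 3.15.

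HSPA1A, the stress-inducible HSP70, varied more than other chaperones of its abundance. Its lowest values were 12.3 CPM in pool 15, 15.9 in pool 1 and 16.5 in pool 32, its median was 48.5, and its highest were 108 in pool 41, 109 in pool 23 and 131 in pool 33. The highest pool was 10.7-fold above the lowest, and the other pools were spread between these ends. HSPA1A lies on chromosome 23 (27520317–27522790, ARS-UCD2.0), and its neighbour HSPA1L begins 54 bases beyond its end. Reads were counted at the 3′ end, and whether any from the adjoining gene entered either count was not tested. HSPA1L itself stayed below the filter, reaching 1 CPM in 10 pools and 4.18 CPM in pool 28, where HSPA1A was at 22.2.

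The exchange factors of HSP70 had a median coefficient of variation (CV) over pools of 20.2%, from 11.1% for HSPA4 to 74.8% for HSPA4L. HSPA4 was between 228 CPM in pool 31 and 369 in pool 12 (median 303), and HSPH1, also known as HSP110, was between 66.6 in pool 35 and 135 in pool 42 (median 97.4), the next pool below the highest being at 115. BAG1, which ties HSP70 to the proteasome, spanned 64.4 CPM in pool 12 to 177 in pool 28, with a median of 112. BAG3, the stress-inducible BAG protein that sends clients to autophagy, was between 5.42 CPM in pool 15 and 23.8 in pool 23 (median 12.6). HSPBP1 was between 9.25 and 20.1 CPM (median 15.8), and HSPA4L, a relative of HSPA4, was between 0.163 and 5.15 (median 1.10).

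The HSP90 system had the narrowest ranges as a group, with a median CV of 12.2% across its 4 genes. HSP90AA1, the inducible cytosolic form, was between 2097 CPM in pool 32 and 3067 in pool 45 (median 2681). The constitutive form HSP90AB1 was lowest and highest in the same pools, at 485 and 849 CPM (median 724). STIP1, the scaffold between HSP70 and HSP90, was between 52.7 and 91.4 CPM (median 73.6), and AHSA1, which speeds the ATPase of HSP90, between 128 and 194 (median 163).

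In the mitochondrial set, HSPE1, the lid of the folding chamber, was between 776 and 1150 CPM (median 928), and its chamber partner HSPD1 was between 97.7 in pool 35 and 233 in pool 19 (median 182). Their genes lie 152 bases apart on chromosome 2. HSPA9, the mitochondrial HSP70, was between 282 CPM in pool 33 and 465 in pool 32 (median 351). TRAP1, the mitochondrial HSP90, was between 20.0 and 64.8 CPM (median 40.1), and its gene overlaps DNASE1.

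Of the small heat shock proteins, which hold unfolding proteins without ATP, 1 was abundant. HSPB1 was between 1061 CPM in pool 35 and 3085 in pool 31, with 2572 in pool 28 as the next highest and a median of 1757, and it made up most of the summed CPM of the HSPB genes with HSPBAP1 (1096 to 3103 CPM). HSPB3, described in muscle, was between 0.504 and 29.3 CPM, with its highest values of 29.3 in pool 12 and 19.1 in pool 13 and a median of 8.17. HSPB8, a partner of BAG3, was between 0.0731 and 8.47 CPM (median 3.15), and HSPBAP1, which is not of this class, between 1.14 and 12.2 (median 7.37). HSPB6 narrowly missed the filter, with 1 CPM in 11 pools and at most 2.13 CPM.

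Among the J proteins of class A, which resemble bacterial DnaJ, DNAJA1 was between 94.2 CPM in pool 31 and 211 in pool 9 (median 121), DNAJA2 between 40.2 and 98.2 in the same pools (median 71.8), and the mitochondrial DNAJA3 between 60.7 in pool 9 and 120 in pool 33 (median 96.2). DNAJA4 was lower, between 6.28 and 23.1 CPM (median 14.5). In class B, DNAJB6, which suppresses aggregation, was between 323 CPM in pool 25 and 540 in pool 12 (median 428). DNAJB1, the main inducible J protein of the cytosol, was between 0.678 CPM in pool 15 and 6.60 in pool 1 (median 2.69), and its relative DNAJB4 between 4.75 in pool 46 and 25.9 in pool 9 (median 10.7).

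Class C is a mixed class that shares little beyond the J domain, and its sum over 27 genes was the steadiest of the roles, at 1097 to 1342 CPM. DNAJC8, which associates with the spliceosome, was between 152 and 203 CPM (median 174) and had the lowest CV of all retained chaperones, 8.32%. DNAJC19, part of the mitochondrial import motor, was between 137 and 234 CPM (median 193), and its relative DNAJC15 between 32.7 and 127 (median 74.1). DNAJC10, a reductase of the endoplasmic reticulum, was between 56.2 CPM in pool 35 and 147 in pool 9 (median 81.9). DNAJC11, a mitochondrial protein, was between 47.7 and 142 CPM (median 92.3), DNAJC25 between 62.6 and 119 (median 87.6), and DNAJC14 between 45.8 and 75.5 (median 59.2).

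The heat shock factors themselves took few reads in these libraries. HSF2 was between 12.8 and 48.2 CPM (median 30.0), and HSF1, the main activator of the heat shock response, between 0.285 and 2.38 (median 1.47), its lowest value resting on 3 counts. HSF1 overlaps DGAT1 in the annotation. In all, 23 of the 75 genes overlap another annotated gene, and the strand setting of the counting is not given in the sources used here, so counts of these genes are uncertain.

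Besides HSPA1L and HSPB6, the genes below the filter were HSPA12A, HSPA12B, HSPB2, HSPB7, HSPB9, DNAJB7, DNAJB13, DNAJC5B and DNAJC5G. DNAJC5B, a testis-enriched relative of the synaptic DNAJC5, was counted in pool 9 only, at 2.00 CPM, and had no count in the other 26 pools. DNAJC5G had no count in any pool, which allows up to 3 counts per pool, or 0.0678 to 0.285 CPM.

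Over the 64 retained genes the median CV was 25.1%, beside 32.5% over all 12310 retained genes. As CV falls with abundance, genes were also set side by side by mean CPM. The median CV was 13.9% for the 15 chaperones with a mean of 100 CPM or more (16.2% for all 1838 such genes) and 23.7% for the 32 between 10 and 100 CPM (26.0% for 5400 genes). For the 17 between 1 and 10 CPM it was 61.5% (52.7% for 5003 genes), the other way round. A range of less than 2-fold from the lowest to the highest pool was found for 16 chaperones, or 25%, beside 11.7% of all retained genes.

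The biological coefficient of variation (BCV), the spread between pools beyond counting error as estimated by edgeR, was compared with the trend fitted over all retained genes at the same abundance. It was below the trend for 51 chaperones (79.7%, beside 71.5% of all retained genes), and the median ratio to the trend was 0.840, beside 0.855. A ratio above 1.5 was found for HSPA1A only, with a BCV of 54.8% and a ratio of 1.97, beside 5.41% of all retained genes above that ratio. HSPB3 (1.47), HSPA6 (1.43), HSPB1 (1.38), DNAJC27 (1.31), DNAJB4 (1.19), DNAJB8 (1.18), DNAJC22 (1.17), DNAJC12 (1.16) and HSPB8 (1.13) came next by the ratio to the trend. DNAJC27 was between 0.0326 and 8.67 CPM (median 2.79), DNAJB8 between 0 and 4.84 (median 1.39), DNAJC22 between 0.629 and 14.5 (median 5.23), and DNAJC12 between 0.0340 and 3.54 (median 0.713). The lowest ratios were those of DNAJC8 (0.536), HSF1 (0.556), AHSA1 (0.578), DNAJB14 (0.610) and DNAJB5 (0.618). DNAJB14, anchored in the endoplasmic reticulum, was between 20.1 and 39.8 CPM (median 27.9), and DNAJB5 between 8.05 and 18.4 (median 11.1).

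**Figure D2:**
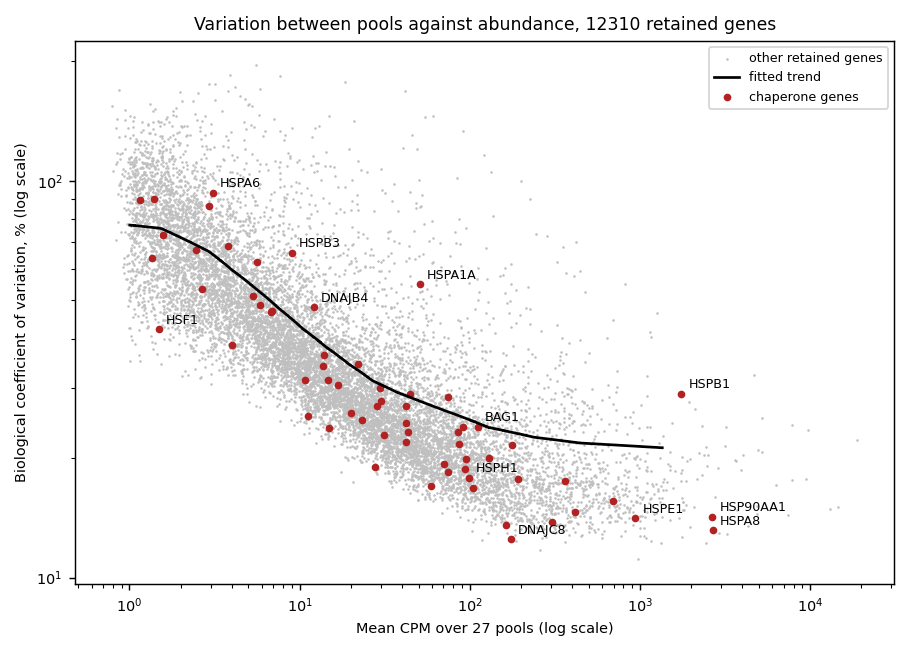
BCV in percent against mean CPM over 27 pools, both on log scales, for the 12310 retained genes (grey) and the 64 chaperones among them (red), with the fitted trend as a black line. HSPA1A lies above the trend by a ratio of 1.97, and most other chaperones lie at or under the line.

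Whether partners of a chaperone machine were high in the same pools was examined in 16 pairs. Pearson correlations of log2(CPM + 1) passed an adjusted p of 0.05 in 5 pairs and Spearman correlations in 2, by two-sided permutation tests over the 27 pools adjusted over the 16 pairs. HSPA8 and its co-chaperone DNAJA1 had the closest relation, with r = 0.772 (permutation p = 2e-05, adjusted 0.00032) and rho = 0.794 (permutation p = 1e-05, the smallest these resamples can give, adjusted 0.00016). It remained without the 2 pools farthest from the median of HSPA8 (r = 0.729). Pool 31 held the lowest level of both genes. Of the 5 Pearson relations, only this one and that of HSPA1A with DNAJB1 passed without the 2 farthest pools.

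HSPA1A and DNAJB1, the inducible HSP70 and its inducible J protein, had r = 0.573 (permutation p = 0.00187, adjusted 0.015) and rho = 0.628 (permutation p = 0.00058, adjusted 0.00464), and leaving out pools 15 and 1, the farthest from the median of HSPA1A, gave r = 0.781. Both genes were lowest in pool 15, although DNAJB1 was highest in pool 1, where HSPA1A was second lowest. HSPA1A and BAG3 had r = 0.483 (permutation p = 0.011, adjusted 0.0438) and rho = 0.443 (permutation p = 0.022, adjusted 0.0703), with r = 0.387 without pools 15 and 1 (adjusted permutation p = 0.176) and r = 0.442 under TMM scaling (adjusted permutation p = 0.0667). The other pairs of HSPA1A did not pass, with r = 0.161 for HSPA8 (permutation p = 0.42, adjusted 0.611), 0.275 for HSPH1 (permutation p = 0.166, adjusted 0.444), -0.039 for HSPB1 (permutation p = 0.847, adjusted 0.904) and 0.222 for HSF1 (permutation p = 0.268, adjusted 0.611).

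HSP90AA1 and HSP90AB1 had r = 0.511 (permutation p = 0.00634, adjusted 0.0338) and rho = 0.496 (permutation p = 0.00961, adjusted 0.0513), with r = 0.389 without 2 pools (adjusted permutation p = 0.176). No relation passed for HSP90AA1 with STIP1 (r = -0.042, permutation p = 0.831, adjusted 0.904), AHSA1 (r = 0.171, permutation p = 0.394, adjusted 0.611) or HSPA8 (r = -0.104, permutation p = 0.606, adjusted 0.746).

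HSPD1 and HSPE1, which form 1 folding machine and lie beside each other, were not correlated in a way that passed (r = -0.105, permutation p = 0.601, adjusted 0.746), and the sign turned under TMM scaling (r = 0.230). HSPD1 was instead related to HSPA9, with r = 0.463 (permutation p = 0.014, adjusted 0.0447) and rho = 0.472 (permutation p = 0.0145, adjusted 0.058), and r was 0.376 without pools 35 and 23, the farthest from the median of HSPD1 (adjusted permutation p = 0.176). HSPA9 had r = 0.014 with TRAP1 (permutation p = 0.942, adjusted 0.942) and -0.169 with DNAJA3 (permutation p = 0.397, adjusted 0.611).

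**Figure D3:**
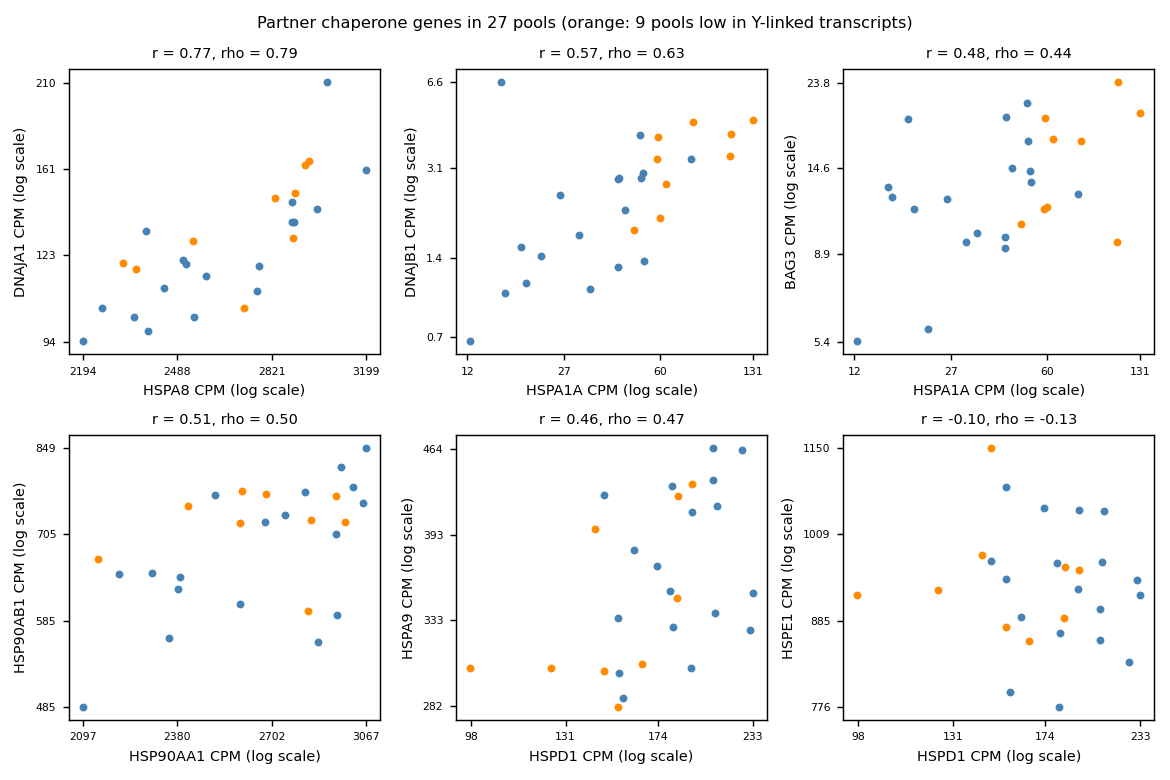
Abundance of 6 partner pairs in CPM on log axes, 1 point per pool, with the 9 pools low in Y-linked transcripts in orange and the other 18 in blue. Points of HSPA8 and DNAJA1 lie along a line (r = 0.772), whereas those of HSPD1 and HSPE1 form no line (r = -0.105).

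Across all 2016 pairs of retained chaperones the median rho was 0.033, beside 0.025 over all pairs of retained genes. A rho of 0.5 or more was found in 58 pairs (2.88%, beside 1.89%) and of -0.5 or less in 39 (1.93%, beside 1.15%). The pairs named next were chosen after their values were seen and were not tested. HSPA4 had rho of 0.778 with DNAJA1 and 0.726 with HSPA8, and DNAJB6 had 0.753 with DNAJA2 and 0.700 with DNAJA1. DNAJC19 and HSPE1, both mitochondrial, had 0.723. Other cytosolic chaperones had negative values with these genes, such as HSP90AB1 with HSPA4 (-0.484) and with HSPA8 (-0.411). The highest value, 0.846, was between DNAJC18 and DNAJC21. Opposite signs were found for HSPB1 with DNAJA1 (-0.676), DNAJA3 with HSPA8 (-0.675) and BAG1 with DNAJB6 (-0.672). All genes of a pool share 1 library and its total, so these correlations are descriptions.

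**Figure D4:**
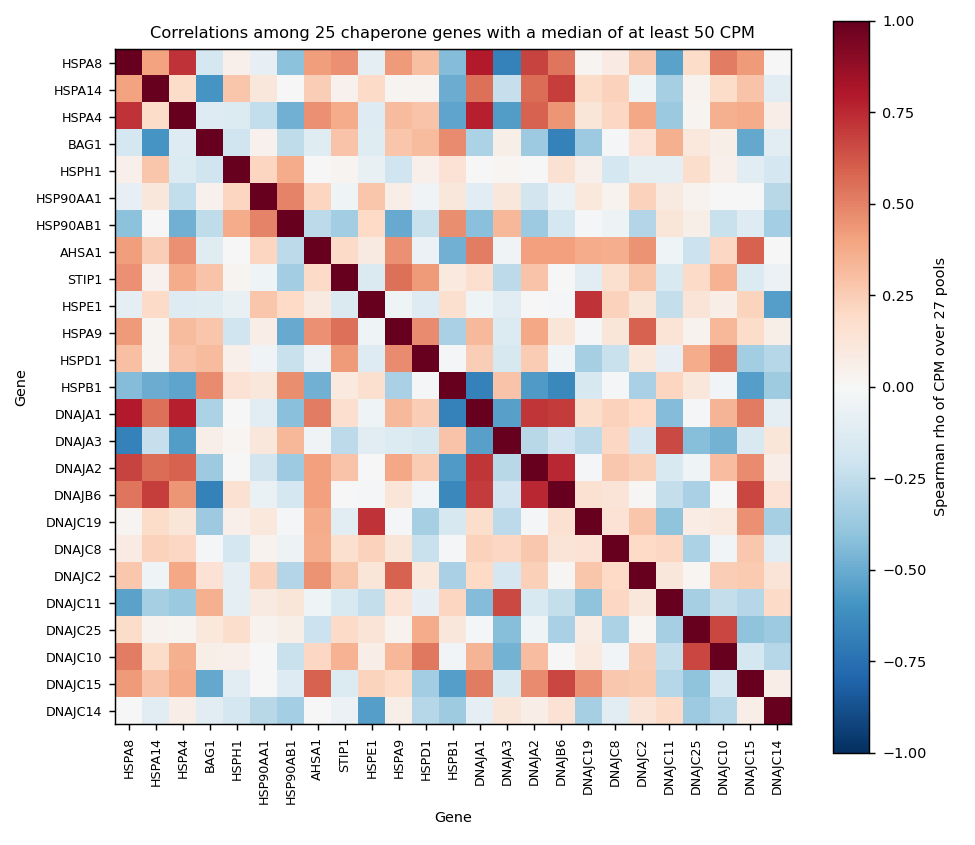
Spearman rho over 27 pools between the chaperones with a median of 50 CPM or more, in order of role, with the colour giving rho. HSPA8, HSPA4 and DNAJA1 share high values (0.726 to 0.794), and HSPB1 has negative values with DNAJA1 (-0.676) and DNAJB6 (-0.643).

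As the pools differed in lineage transcripts, 5 members of these extreme pairs were set beside the summed CPM of lineage markers, an analysis chosen after the data were seen, with 10 relations in the family. The 5 genes were picked for their correlations with each other in the same pools, so their relations are not separate results. The adjustment over 10 relations does not account for the choice from 64 genes. The summed trophectoderm markers were between 15680 CPM in pool 12 and 38980 in pool 31, and the keratins KRT8 and KRT18 made up 96.8% to 98.7% of that sum, so these are relations with 2 keratins. The 8 epiblast markers summed to between 305 CPM in pool 31 and 1276 in pool 32. An absolute r of 0.5 or more with the keratin-led sum was found for 11 of the 64 chaperones (17.2%), beside 10.9% of all retained genes, and with the epiblast sum for 9 (14.1%), beside 11%.

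HSPB1 was higher in pools with more of the keratin-led sum (r = 0.591, permutation p = 0.00105, adjusted 0.0035, rho = 0.609, permutation p = 0.00088, adjusted 0.00383), as was BAG1 (r = 0.611, permutation p = 0.00066, adjusted 0.0033, rho = 0.510, permutation p = 0.00754, adjusted 0.0162). DNAJB6 was lower in these pools (r = -0.714, permutation p = 5e-05, adjusted 0.0005, rho = -0.645, permutation p = 0.00043, adjusted 0.00383), and so was DNAJA1 (r = -0.579, permutation p = 0.00179, adjusted 0.00447, rho = -0.613, permutation p = 0.00115, adjusted 0.00383). Without the 2 pools farthest from the median of each gene, r was 0.561 for HSPB1, 0.518 for BAG1, -0.652 for DNAJB6 and -0.550 for DNAJA1. With the other 8 trophectoderm markers alone, which summed to 420 to 948 CPM, none of the relations remained (r = -0.008 for HSPB1, 0.138 for BAG1, 0.061 for DNAJB6, 0.033 for DNAJA1 and 0.085 for HSPA8, adjusted permutation p between 0.82 and 0.968). HSPA8 had r = -0.498 with the keratin-led sum (permutation p = 0.00786, adjusted 0.0112, rho = -0.503, permutation p = 0.00809, adjusted 0.0162), but r was -0.376 without 2 pools and -0.231 under TMM scaling (adjusted permutation p = 0.105 and 0.279). For DNAJA1, r was -0.410 under TMM scaling (adjusted permutation p = 0.0691). The 2 keratins take a few percent of all counts, and their part in these relations through the shared total was not tested.

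With the epiblast sum, HSPB1 (r = -0.496), HSPA8 (r = 0.485) and DNAJB6 (r = 0.400) passed by Pearson (adjusted permutation p = 0.0112, 0.0112 and 0.0451), but none of these 3 did without 2 pools (r = -0.348, 0.355 and 0.239). DNAJA1 went the other way, from r = 0.295 (permutation p = 0.135, adjusted 0.15) to r = 0.471 without 2 pools (adjusted permutation p = 0.0283).

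Which genes followed 1 chosen chaperone across the pools was tested with edgeR's quasi-likelihood test over all retained genes, as the log2 slope per unit of log2(CPM + 1) of that chaperone, with Benjamini-Hochberg adjustment over all genes tested. HSPA1A was followed by 665 of 12309 genes, 5.4%, with 2.92% rising and 2.49% falling. Of the other 63 chaperones, 3 passed, or 4.76%, close to the share of all genes, and 18 had an unadjusted p under 0.05 (28.6%, beside 18.7% of genes). DNAJB4 rose with HSPA1A by 0.58 on the log2 scale (SE 0.13, adjusted p = 0.00632). HSPA9 fell by 0.18 (SE 0.042, adjusted p = 0.00697) and BAG1 fell by 0.23 (SE 0.065, adjusted p = 0.0332). DNAJB1 had a slope of 0.35 (adjusted p = 0.23) and BAG3 of 0.24 (adjusted p = 0.19), neither past the threshold. DESeq2 called 5 chaperones (beside 7.57% of genes), which added DNAJA4 at 0.27 (SE 0.092, adjusted p = 0.0435) and DNAJC4 at -0.23 (SE 0.078, adjusted p = 0.0464). Pools 15 and 1 were the 2 farthest from the median of HSPA1A on the log2 scale, and both were low in it. Without them, edgeR called 278 of the 12309 genes and 2 of the 63 chaperones (3.17%). These were DNAJB4 (0.65, edgeR adjusted p = 0.0225) and DNAJB1 (0.67, adjusted p = 0.0216). HSPA9 (-0.17, edgeR adjusted p = 0.0747) and BAG1 (-0.23, adjusted p = 0.13) no longer passed.

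Other folding machines, a list of 49 genes that holds the cytosolic TRiC chamber, prefoldin, the chaperones of the endoplasmic reticulum and HSP90 co-chaperones, were read from the same test. Of the 47 retained, 2 rose with HSPA1A (4.26%, beside 2.92% of all genes) and 3 fell (6.38%, beside 2.49%). The prefoldin subunit VBP1 rose by 0.35 (SE 0.065, adjusted p = 0.00106) and SERPINH1, the collagen chaperone, by 0.64 (SE 0.17, adjusted p = 0.0168). The TRiC subunits CCT5 and CCT7 fell by 0.17 (SE 0.033, adjusted p = 0.00207) and 0.16 (SE 0.045, adjusted p = 0.036), and BAG2 fell by 0.20 (SE 0.045, adjusted p = 0.00633). The median CV of these 47 genes was 18.5%. Their relations with sex-linked transcripts are given below.

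The same test on the other reference chaperones called none of the 63 by edgeR. For HSPH1, 1 of all genes passed (0.00812%), and at an unadjusted p under 0.05 there were 5 chaperones and 4.78% of genes. DESeq2 called 2 genes (0.0162%) and no chaperone. For HSP90AA1, edgeR and DESeq2 called no gene (0%), and the unadjusted count was 1 chaperone, HSP90AB1 (0.57, SE 0.23, adjusted p = 0.998), beside 4.17% of genes. For HSPD1, edgeR called no gene (0%), with 10 chaperones at an unadjusted p under 0.05 beside 12.6% of genes, whereas DESeq2 called 179 genes (1.85%), among them DNAJC10 (0.75, SE 0.19, adjusted p = 0.0265) and HSPA9 (0.50, SE 0.15, adjusted p = 0.0424). For depth, taken as the log2 total count, no gene was called by edgeR or DESeq2 (0%), and the unadjusted count was 1 of 64 chaperones, DNAJB8, beside 2.69% of genes.

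The genes that followed HSPA1A were unevenly placed on the chromosomes, although HSPA1A is on chromosome 23 and none of the 75 chaperone genes is on the X. Positions of the other folding genes, such as VBP1, are not given here. Whether their relations with HSPA1A go with a place on the X was not tested. Of the 12264 tested genes with a RefSeq position, 446 (3.64%) are on the X chromosome. Of the 356 placed genes that rose with HSPA1A, 177 (49.7%) are on the X, and of the 305 that fell, none. This led to a comparison, added after the data were seen, with XIST, the RNA that silences 1 X chromosome in female cells, and with the summed CPM of 5 Y-linked genes (DDX3Y, EIF1AY, USP9Y, ZFY and ZRSR2Y). The sex of the embryos is not in the labels, and a pool could hold embryos of either sex or both.

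HSPA1A rose with XIST by 0.40 on the log2 scale per unit of log2(XIST CPM + 1) (SE 0.067, edgeR adjusted p = 0.000601), and it fell by 0.24 per unit of the Y-linked sum (SE 0.046, edgeR adjusted p = 0.00183). Both references were chosen because X-linked genes had risen with HSPA1A in these same pools. The p-values do not account for that choice, so these slopes are descriptions. The 5 pools with the highest HSPA1A, at 77.9 to 131 CPM, had between 9.66 and 32.8 CPM of XIST. XIST was between 0.0484 and 1.42 CPM in the 5 pools with the lowest HSPA1A. Pools between these ends were less ordered. Pool 5, with the highest XIST (35.4 CPM), held 48.5 CPM of HSPA1A, and pool 46 held 33.4 with 18.05 CPM of XIST. Pool 21 held 42.75 CPM of HSPA1A with only 0.146 CPM of XIST. In 9 pools the Y-linked sum was between 0.430 and 1.65 CPM, and in the other 18 between 18.9 and 197, with no pool between. HSPA1A ranged from 48.5 to 131 CPM in these 9 (median 63.2) and from 12.3 to 77.9 in the other 18 (median 37.8), with overlap. The 9 pools took 8 of the 9 highest ranks of HSPA1A, with pool 42 as the other, and their lowest rank was 14.

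Of the 64 retained chaperones, 4 followed XIST (6.25%, beside 4.37% of all genes tested). Besides HSPA1A, these were BAG1, which fell by 0.14 (SE 0.033, adjusted p = 0.0139), DNAJB3, which fell by 0.29 (SE 0.069, adjusted p = 0.0141), and HSPA9, which fell by 0.082 (SE 0.024, adjusted p = 0.0452) and no longer passed with RLE normalization (adjusted p = 0.0554). DNAJB3, whose gene overlaps UGT1A6, was between 1.65 and 14.4 CPM (median 4.52). For the Y-linked sum, 4 of 64 were called (beside 5.38% of genes). BAG1 rose by 0.093 (SE 0.021, adjusted p = 0.0064), whereas HSPA1A, HSPA2 (-0.14, SE 0.031, adjusted p = 0.00669) and DNAJC15 (-0.092, SE 0.027, adjusted p = 0.0389) fell, of which DNAJC15 did not pass with the total count added (adjusted p = 0.0641). HSPA2 ranged from 23.0 to 36.4 CPM where Y-linked transcripts were low (9 pools) and from 7.95 to 29.1 in the other 18. BAG1 ranged from 64.4 to 131 CPM in the 9 and from 86.9 to 177 in the 18, so both genes overlap between them. DESeq2 called 6 chaperones for XIST (beside 6.8% of genes) and 7 for the Y-linked sum (beside 7.49%). Of the 47 other folding genes, 2 rose and 2 fell with XIST (4.26% each), beside 301 and 237 of the 12309 genes tested (4.37% in both directions together). With the Y-linked sum, 3 rose and 3 fell (6.38% each), beside 308 and 354 of the 12305 genes tested (5.38% together). VBP1 rose with XIST by 0.17 (SE 0.035, edgeR adjusted p = 0.00322) and fell with the Y-linked sum by 0.13 (SE 0.020, adjusted p = 0.000108). SERPINH1 also rose with XIST and fell with the Y-linked sum, whereas CCT5 and BAG2 did the reverse. CCT7 rose with the Y-linked sum (edgeR adjusted p = 0.00832). XIST and Y-linked transcripts were read in the same libraries, so these calls are not independent of each other.

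**Figure D5:**
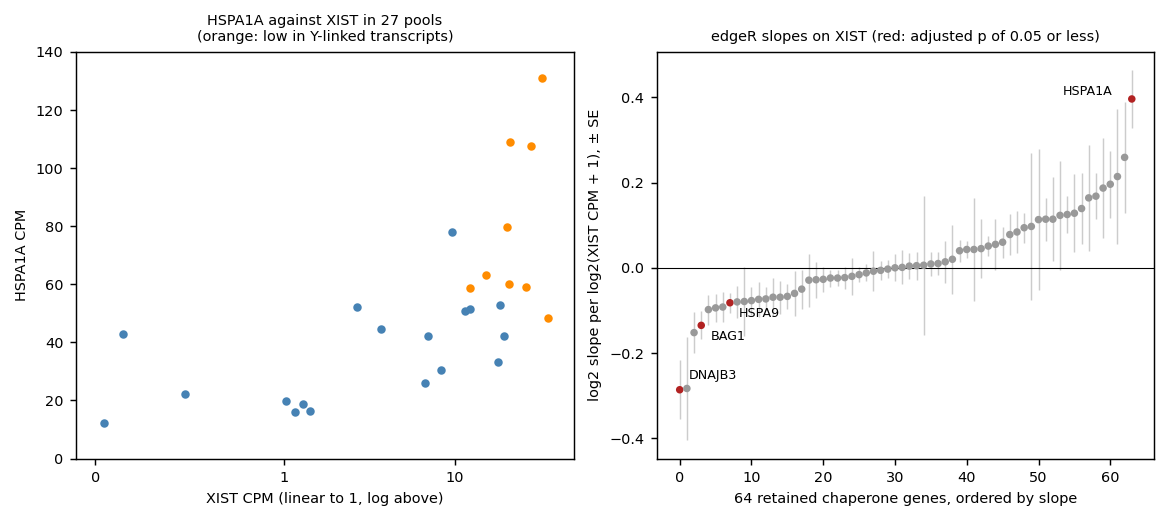
Left, HSPA1A CPM against XIST CPM (linear up to 1, log above) in 27 pools, with the 9 pools low in Y-linked transcripts in orange. Right, log2 slopes of the 64 retained chaperones on XIST with their SE, with the 4 at an adjusted p of 0.05 or less in red, of which HSPA1A (0.40) is the only positive one.

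With XIST added to the fit on HSPA1A, no chaperone and no gene was called by edgeR, and 6 chaperones (9.52%) and 794 genes (6.45%) had an unadjusted p under 0.05. With the Y-linked sum added, 18 genes and no chaperone passed, with 8 chaperones at an unadjusted p under 0.05 (12.7%, beside 11.3% of genes). None of the 47 other folding genes passed in either fit. The slope of DNAJB4 on HSPA1A was 0.70 with XIST added (adjusted p = 0.373) and 0.54 with the Y-linked sum added (adjusted p = 0.213), beside 0.58 without. That of HSPA9 was -0.16 and -0.20, beside -0.18 without, and that of BAG1 shrank to -0.072 and -0.077. In the 18 pools alone, edgeR called 11 genes and no chaperone, and 6 chaperones had an unadjusted p under 0.05 (9.52%, beside 10.1% of genes). The slopes there were 0.70 for DNAJB4 (edgeR adjusted p = 0.143), -0.18 for HSPA9 (adjusted p = 0.248) and -0.11 for BAG1 (adjusted p = 0.722). DESeq2 was not run with these additions.

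Because the pools form separate clusters in Y-linked transcripts, correlations of HSPA1A were calculated within the 18 and the 9 pools, 14 relations in all. The partners had already passed a test with HSPA1A over all 27 pools, which include these. The adjustment over 14 relations does not account for that choice. Within the 18 pools, HSPA1A was correlated with XIST (r = 0.660, permutation p = 0.00375, adjusted 0.0323; rho = 0.620, permutation p = 0.00775, adjusted 0.0571; r = 0.550 without 2 pools) and with DNAJB4 (r = 0.639, permutation p = 0.00461, adjusted 0.0323; rho = 0.608, permutation p = 0.00833, adjusted 0.0571). In the 9 pools, r with DNAJB4 was 0.178 (exact permutation p = 0.653, adjusted 0.761). With HSPA9, r was -0.557 in the 18 pools (permutation p = 0.0179, adjusted 0.0837) and -0.668 in the 9 (exact permutation p = 0.052, adjusted 0.142), and with BAG1 it was -0.336 (permutation p = 0.174, adjusted 0.27) and -0.103 (exact permutation p = 0.788, adjusted 0.849). The edgeR slope of HSPA1A on XIST within these 18 pools was 0.30 (SE 0.092), which did not pass over all genes (adjusted p = 0.313). With DNAJB1, r was 0.369 in the 18 pools (permutation p = 0.134, adjusted 0.234) and 0.688 in the 9 (exact permutation p = 0.0422, adjusted 0.142), so the relation of HSPA1A with DNAJB1 was positive in both but did not pass in either. With BAG3, r was 0.423 in the 18 pools (permutation p = 0.0813, adjusted 0.163) and 0.403 in the 9 (exact permutation p = 0.268, adjusted 0.375), where it turned to -0.160 without 2 pools. With XIST in the 9 pools, r was 0.262 (exact permutation p = 0.49, adjusted 0.623).

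The reference chaperones were also set beside properties of the pools, with 28 relations in the family. None passed the adjusted threshold by permutation test, and 2 Pearson and 3 Spearman relations had an unadjusted p under 0.05. These were HSPA1A with the summed cumulus markers (r = 0.475, permutation p = 0.0122, adjusted 0.342, rho = 0.521, permutation p = 0.00585, adjusted 0.164), HSP90AA1 with the leukocyte markers (r = -0.422, permutation p = 0.0272, adjusted 0.381, rho = -0.429, permutation p = 0.0266, adjusted 0.351) and, by rho only, HSPA1A with the trophectoderm markers, nearly all keratin (rho = -0.403, permutation p = 0.0382, adjusted 0.351). All 8 cumulus markers were counted and their sum was between 3.49 and 33.8 CPM, and that of the 7 leukocyte markers between 12.6 and 81.0. The part of such cells in the levels of the chaperones was not tested.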

How the data were processed

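Forward reads of the SMART-Seq v4 3′ DE libraries were trimmed (fastp), aligned to ARS-UCD2.0 (STAR) and assigned to genes (featureCounts) by the authors. The deposited values are raw counts per gene, neither normalized nor filtered. Versions, annotation release and strand setting are not given in the sources used here. Counts are reads and not molecules.

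CPM was calculated from column totals, and a gene was retained when 12 or more pools reached 1 CPM, the filter of the study. Slopes were tested with edgeR 4.0.16 (quasi-likelihood, TMM) in R 4.3.3, with DESeq2 1.42.0 as an alternative, at an adjusted p of 0.05, and the fit was tested on simulated data. Correlations used log2(CPM + 1) and 100000 permutations, or all permutations for 9 pools (Python 3.11.15, numpy 2.4.6, pandas 2.3.3, scipy 1.17.1). The members, roles, lists and tests were chosen with earlier results of these data known. Any member could be named, and up to 3 other chaperones per reference gene and direction were eligible by smallest p. Comparisons with XIST, Y-linked genes and lineage sums were added after seeing the data. Alternatives covered the CPM minimum, scaling, pseudocount, tool, depth as a covariate and leaving out 2 pools. The lowest chi-square per degree of freedom between any 2 pools was 23.9, so none were merged. Positions are those of RefSeq, in which all 75 genes were matched by symbol. Mitochondrially encoded mRNAs and sequences were not analysed here.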

Additional observations from a re-analysis of the deposited data

How the results depend on the processing

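Scaling by TMM moved the median of all retained genes by up to 0.15 on the log2 scale in a pool and by DESeq2 size factors by up to 0.14, and the median CV of the chaperones was 25.6% and 25.4% under them, and 22.0% over those with a mean of 5 CPM or more. The filter retained between 52 chaperones (1 CPM in all pools) and 74 (no filter). The number of chaperones following HSPA1A was 5 under DESeq2 and 0 with Y-linked transcripts added, with XIST added, and in the 18 pools high in Y-linked transcripts alone. Without a filter, 2 chaperones followed HSPH1, 1 HSP90AA1, 2 HSPD1 and 1 the total count, among them genes counted in few pools, and these fits called 1.34%, 2.62%, 2.87% and 2.57% of all genes. DESeq2 called 2 for HSPD1 and 7 for Y-linked transcripts. Within the 18 pools, 0 followed Y-linked transcripts and 0 followed XIST, although slopes on the Y-linked sum were no smaller there (BAG1 0.13, HSPA1A -0.37, HSPA2 -0.20, DNAJC15 -0.12), while those on XIST were 0.30 for HSPA1A, -0.29 for DNAJB3, -0.078 for BAG1 and -0.069 for HSPA9. Of the pair correlations, 2 passed by Pearson without the 2 farthest pools and 4 by Spearman under TMM. Of the 10 lineage relations, 8 passed by Pearson and 6 by Spearman, against 4 by Pearson under TMM, 5 and 3 without 2 pools, and 2 and 0 when KRT8 and KRT18 left the trophectoderm sum. That last change turned signs for HSPB1 (r = -0.008, rho = -0.035), HSPA8 (r = 0.085, rho = 0.016), DNAJA1 (r = 0.033) and DNAJB6 (r = 0.061, rho = 0.077). The causes of these shifts were not tested. Among relations that had not passed, signs turned for HSPD1 with HSPE1 under TMM (r = 0.230, rho = 0.198), HSPA1A with HSPA8 (r = -0.002) and HSP90AA1 with STIP1 (r = 0.035). Among relations with pool properties they turned under TMM for HSPH1 with genes detected (r = -0.045), trophectoderm (r = 0.090, rho = 0.111), cumulus (r = -0.011) and hypoblast markers (rho = -0.038), and for HSP90AA1 with genes detected (r = -0.141, rho = -0.045), trophectoderm (r = 0.171, rho = 0.023), epiblast (rho = 0.010) and cumulus markers (rho = -0.027). Without 2 pools they turned for HSPH1 with genes detected (r = -0.017), trophectoderm (r = 0.010), cumulus markers (r = -0.187, rho = -0.045) and total count (rho = -0.047), and for HSP90AA1 with epiblast (r = 0.052, rho = 0.103) and cumulus markers (r = -0.205, rho = -0.155). With a pseudocount of 0.1, HSPH1 with cumulus markers had r = -0.001. No paired analysis was possible because the labels put all pools in 1 group. In these pools 3 counts equalled 0.0678 to 0.285 CPM. Some lowest values rest on fewer, such as those of DNAJC27 and DNAJC12 (1 count each) and HSPB8 (2 counts). This limits HSF1, HSPA6 and other low members.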

Other observations

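Beyond the chaperones, the genes with the smallest p in the test on HSPA1A in each direction were read, a choice made after their values were seen and without a test of any function. Of the 8 with the smallest p among those that rose, 3 have no gene name and the other 5 were TUBA3E, an alpha tubulin on chromosome 17 (0.84 on the log2 scale, SE 0.11, edgeR adjusted p = 4.14e-05, between 3.82 and 48.4 CPM), and the X-linked CITED1, a transcriptional co-activator (0.57, SE 0.077, adjusted p = 4.14e-05), PIN4 (0.40, SE 0.058, adjusted p = 0.000103), the centrin CETN2 (0.46, SE 0.070, adjusted p = 0.00024) and STEEP1 (0.35, SE 0.054, adjusted p = 0.00024).

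The 8 with the smallest p among those that fell were 6 genes of mitochondrial proteins, the translation factor subunit EIF3I (by 0.22, SE 0.033, edgeR adjusted p = 0.000187) and the vesicle coat subunit COPZ1 (by 0.21, SE 0.036, adjusted p = 0.000698). ATP5F1A, the alpha subunit of ATP synthase, fell by 0.29 (SE 0.036, edgeR adjusted p = 3.62e-05, between 1898 and 3606 CPM). UQCRC1 and CYC1, both of respiratory complex III, fell by 0.39 (SE 0.050, adjusted p = 3.62e-05) and 0.25 (SE 0.035, adjusted p = 7.67e-05). SLC25A3, the phosphate carrier, fell by 0.21 (SE 0.032, adjusted p = 0.00024), ATP5PO by 0.22 (SE 0.034, adjusted p = 0.000255) and TIMM50, a receptor of protein import, by 0.22 (SE 0.036, adjusted p = 0.000517). With XIST added to the fit, no gene passed and SEs were larger. Slopes of the named genes kept their sign, and most were smaller. They were 0.59 for TUBA3E (SE 0.16), 0.38 for CITED1 (SE 0.11), 0.30 for CETN2 (SE 0.11) and 0.215 for STEEP1 (SE 0.081). Among those that fell, they were -0.18 for ATP5F1A (SE 0.055), -0.35 for UQCRC1 (SE 0.082) and -0.25 for CYC1 (SE 0.058). With the Y-linked sum added instead, TUBA3E and SLC25A3 (edgeR adjusted p = 0.0343 each), CYC1 and EIF3I (0.0463 each) and ATP5F1A (0.0493) passed. The other named genes did not.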
